A study of Mus musculus with 2 samples.

Results

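The miR-99/100 and miR-125 families were described in the mouse adrenal gland through 6 microRNA (miRNA) genes, Mir99a, Mir99b, Mir100, Mir125a, Mir125b-1 and Mir125b-2. They were taken by gene symbol from the 2202 miRNA genes of the count tables, and all 6 had at least 10 counts in each library. Small RNA was sequenced from adrenal gland of female B6CASTF1/J mice, the first hybrid generation of a cross between C57BL/6J and CAST/EiJ, at 18 to 20 months of age. No treatment and no engineered allele is named. There was 1 group of 2 replicates, entered as separate tissue samples under the same donor record. Values therefore describe this tissue and the spread between these samples, which may be technical. Reads counted on a gene's own strand totalled 2590051 in replicate 1 and 2291030 in replicate 2, and CPM values (counts per 1000000) refer to these totals.

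The miRNA marker lists were mixed, as in a whole gland. Per library (replicate 1, then replicate 2), neuroendocrine markers led by Mir375 summed to 66107 and 56588 CPM, endothelial markers to 64764 and 33414 CPM, and smooth muscle markers to 28442 and 20276 CPM. Leukocyte markers summed to 2074 and 2050 CPM, erythroid markers to 902 and 490.2 CPM, striated muscle markers to 598 and 81.2 CPM, and epithelial markers to 43.6 and 249 CPM. The liver marker Mir122 had 622 and 702 CPM, and kidney tubule markers summed to 56.8 and 36.2 CPM. In the striated muscle list 5 of 9 genes had counts, and Mir1a-1, Mir133a-1, Mir133a-2 and Mir133b were at 0. Gene counts leave out reads with more than 1 alignment, so a count of 0 does not show that a miRNA was absent. No list was specific to the steroid-producing cortex. In whole tissue, fewer cells of a type and less RNA per cell cannot be told apart.

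A miRNA guides the silencing machinery to messenger RNAs mainly through its seed, bases 2 to 8 of the mature strand, so genes with the same seed can share many targets. The miR-99/100 family is among the most deeply conserved in animals, and in human adrenocortical tumour cells miR-99a and miR-100 have been described as repressors of the growth regulators MTOR and IGF1R. The miR-125 family is related to lin-4 of Caenorhabditis elegans, the developmental timing miRNA, and Lin28 is among its known mammalian targets. In rodent steroidogenic cells miR-125a has been described as a repressor of Scarb1, the lipoprotein receptor that takes up cholesterol. In mammals genes of both families lie beside a let-7 gene in 3 paralogous clusters. The let-7 family, which also represses Lin28, is abundant in differentiated tissue.

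The mature 5′ strands are shown because seed sharing defines the families and because near-identity between genes limits what the counts can separate. They are RefSeq sequences on GRCm38.p6, and the capitals mark the seed. All 6 genes had a mature entry.
miR-99a-5p: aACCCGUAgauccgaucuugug
miR-99b-5p: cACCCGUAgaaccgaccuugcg
miR-100-5p: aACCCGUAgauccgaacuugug
miR-125a-5p: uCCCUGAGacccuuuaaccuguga
miR-125b-5p: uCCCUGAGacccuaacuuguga
Counting positions from 1 at the 5′ end, miR-99a and miR-100 differed by the single substitution U16A, so 21 of 22 positions were identical. From miR-99a to miR-99b the substitutions were A1C, U11A, U16C and U21C. The miR-125a and miR-125b strands shared their first 13 bases. The miR-125b strand was identical in Mir125b-1 and Mir125b-2, and of the listed mature strands of the 6 genes it was the only one that occurred whole in more than 1 annotated miRNA hairpin.

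The 3′ strands separated the pair of miR-125b genes, and they are shown because sequence outside the shared run can tell their reads apart.
miR-125b-1-3p: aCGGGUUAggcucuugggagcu
miR-125b-2-3p: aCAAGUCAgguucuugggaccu
Between the hairpins of Mir125b-1 and Mir125b-2 the longest shared run was 24 bases, against 22 bases in the mature 5′ strand. Gene counts leave out reads with more than 1 alignment, so a read of the miR-125b-5p strand that lies within the shared run cannot have been credited to either gene. The counts of Mir125b-1 and Mir125b-2 are thus no measure of total miR-125b. The hairpins of the other 4 genes each shared no run of 18 bases with another miRNA gene at a separate place, the longest run between Mir99a and Mir100 being 16 bases.

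RefSeq hairpins of 4 of the 6 genes show how the strands sit in their precursors, with both mature strands in capitals.
Mir99a: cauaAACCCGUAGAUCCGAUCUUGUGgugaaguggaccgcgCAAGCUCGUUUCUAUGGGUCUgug
Mir100: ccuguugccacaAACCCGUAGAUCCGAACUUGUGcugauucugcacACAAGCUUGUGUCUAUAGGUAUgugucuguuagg
Mir125a: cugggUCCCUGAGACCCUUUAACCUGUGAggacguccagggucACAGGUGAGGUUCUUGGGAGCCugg
Mir125b-1: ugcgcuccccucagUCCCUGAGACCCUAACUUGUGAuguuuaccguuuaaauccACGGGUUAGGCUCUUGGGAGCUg
The counts belong to a whole hairpin, so the strands were not resolved.

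Positions are on mm10 with GENCODE M21, all on the plus strand. Mir99a (ENSMUSG00000065530.1; chromosome 16, 77598936 to 77599000) and Mir125b-2 (ENSMUSG00000065472.1; chromosome 16, 77646273 to 77646343) lie in introns of the noncoding gene Mir99ahg, and Mir125b-2 also overlaps an exon of C130023A14Rik. Mir100 (ENSMUSG00000093011.1; chromosome 9, 41531425 to 41531504) and Mir125b-1 (ENSMUSG00000093354.1; chromosome 9, 41581926 to 41582002) lie in introns of the noncoding genes 3110039I08Rik and Gm49317. Mir125b-1 also overlaps an exon of Gm28119, and Mir100 overlaps an exon of Gm48742 on the opposite strand. Mir99b (ENSMUSG00000065396.1; chromosome 17, 17830188 to 17830257) lies in an intron of the protein-coding gene Spaca6, and Mir125a (ENSMUSG00000065479.2; chromosome 17, 17830812 to 17830879) overlaps an exon of it. The clusters spanned 47.4 kb on chromosome 16 and 50.6 kb on chromosome 9, but 692 bases on chromosome 17.

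The miR-99/100 genes had more counts than the miR-125 genes, and Mir99a was their main source. Because miR-125b-5p reads within the shared run were credited to no gene, this does not rank the families by mature miRNA. Mir99a had 39136 counts (15110 CPM, Wilson 95% interval 14962 to 15259) in replicate 1 and 27030 counts (11798 CPM, 11659 to 11939) in replicate 2, a mean of 13454 ± 2342 CPM (SD, n = 2). It ranked 18 and 19 among all miRNA genes of these libraries. Mir99b had 8762 counts (3383 CPM, 3313 to 3454) and 20811 counts (9084 CPM, 8962 to 9207), a mean of 6233 ± 4031 CPM (SD, n = 2). Mir100 had 8181 counts (3159 CPM, 3091 to 3228) and 3279 counts (1431 CPM, 1383 to 1481), a mean of 2295 ± 1221 CPM (SD, n = 2). Mir99a was the highest of the family in both libraries, while Mir99b and Mir100 were close together in replicate 1 and far apart in replicate 2.

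In the miR-125 family nearly all counts came from Mir125a. It had 20424 counts (7886 CPM, 7779 to 7994) in replicate 1 and 15588 counts (6804 CPM, 6698 to 6911) in replicate 2, a mean of 7345 ± 765 CPM (SD, n = 2), ranking 26 and 30. Mir125b-1 had 611 and 432 counts, or 212 ± 33.5 CPM, and Mir125b-2 had 717 and 369 counts, or 219 ± 81.9 CPM (SD, n = 2 each). For these genes, reads of the 5′ strand within the shared run could not be placed, so the gap to Mir125a is no comparison of the mature miRNAs. The intervals hold counting error of reads alone. They do not allow for reads copied by PCR, which do not count separate molecules.

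Each read of a miRNA library covers most of a mature strand of 22 to 24 bases, so levels were set side by side per read. By mean CPM the order was Mir99a, Mir125a, Mir99b, Mir100, Mir125b-2 and Mir125b-1, and dividing by hairpin length, 65 to 80 bases, changed the place of 0 of the 6 genes. The library ranges of Mir125a and Mir99b overlapped, as did those of Mir125b-2 and Mir125b-1. In each of these pairs the order turned between the libraries, so the means give no firm order for them. Mir99a lay above Mir125a in both libraries, and the ranges of Mir99b and Mir100 did not overlap, although 3383 and 3159 CPM came from the same library. Opposite-strand counts at the 6 genes numbered 0 in each library, which allows up to 3.

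**Figure D1:**
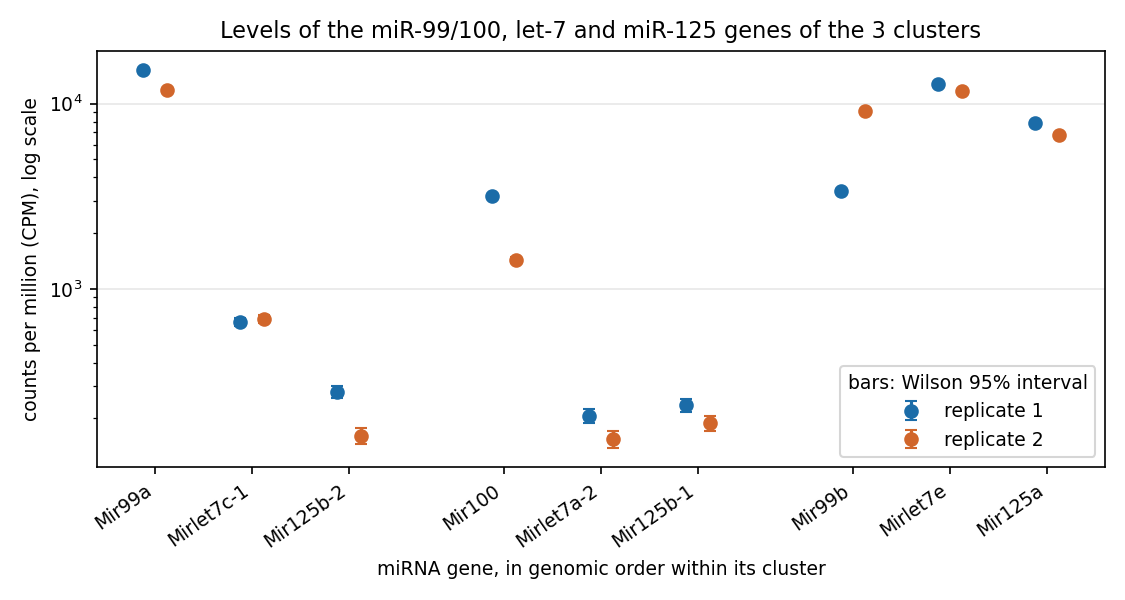
CPM on a log axis for each gene of the 3 clusters in replicate 1 (blue) and replicate 2 (orange), with Wilson 95% intervals as bars. Mir99b is the gene whose orange point lies far above the blue one, at 9084 against 3383 CPM, and Mir100 shows the opposite order, at 1431 against 3159 CPM.

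The miR-99/100 genes together took nearly the same share of counts in both libraries although the makeup of that share changed. Their sum made up 2.17% (Wilson 95% interval 2.15 to 2.18) of the counts of replicate 1. In replicate 2 it made up 2.23% (2.21 to 2.25), and the mean was 2.198% ± 0.0468 (SD, n = 2). Of these counts Mir99a gave 69.8% in replicate 1 (69.4 to 70.2) and 52.9% in replicate 2 (52.4 to 53.3). Mir99b gave 15.6% (15.3 to 15.9) and 40.7% (40.3 to 41.1), and Mir100 gave 14.6% (14.3 to 14.9) and 6.41% (6.21 to 6.63). Mir99a thus gave most reads of the family in both libraries, and the place of Mir99b beside it was far larger in replicate 2. The log2 ratio of the sum, replicate 2 over replicate 1, was 0.08 (95% interval 0.06 to 0.10) and turned to -0.01 with DESeq2 size factors.

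The miR-125 genes made up 0.840% (0.829 to 0.851) of the counts of replicate 1. In replicate 2 they made up 0.715% (0.705 to 0.726), and the mean was 0.778% ± 0.0880 (SD, n = 2). Mir125a gave 93.9% of that sum in replicate 1 and 95.1% in replicate 2, so the makeup of the counted reads moved little. Reads of miR-125b-5p within the shared run are not in the sum, so these shares do not describe the mature miRNAs. A search of RefSeq mature strands for the miR-125 seed also found Mir351, Mir6394 and Mir6367. Mir351, in the X-linked Mir322 cluster, had 1773 and 2572 CPM, while Mir6394 and Mir6367 had 0 counts in both libraries, which allows up to 3 each. For the miR-99/100 seed, Mir99a, Mir99b and Mir100 were the only entries found.

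Comparing the libraries gene by gene, Mir99b was higher in replicate 2 and the other 5 genes were higher in replicate 1. The test was a two-sided exact conditional binomial test with Benjamini-Hochberg adjustment over the 367 miRNAs whose counts in both libraries together reached 20. It has counting error as its only spread and compares these libraries, not conditions. All 6 genes passed at an adjusted p of 0.05, but so did 62.7% of all miRNAs tested, 30.2% in the direction of replicate 2 and 32.4% in that of replicate 1, so passing does not set the 6 genes apart.

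The sizes of the differences were uneven within the miR-99/100 family. Mir99b had a log2 ratio of 1.46 (95% interval 1.43 to 1.50), 2.76-fold higher in replicate 2. Mir100 had a ratio of -1.10 (-1.16 to -1.05), 2.15-fold higher in replicate 1, and Mir99a one of -0.32 (-0.34 to -0.30). Mir99b and Mir100 also passed a 2-fold limit, as 17.7% of tested miRNAs did. By absolute log2 ratio Mir99b ranked 37 and Mir100 ranked 59 of 367. Many larger ratios came from low counts, and among the 119 tested miRNAs with a mean count of at least 1000 there were 4 with a larger ratio than Mir99b and 12 with a larger one than Mir100.

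The miR-125 genes were all higher in replicate 1. Mir125a had a log2 ratio of -0.18 (-0.21 to -0.15), Mir125b-1 of -0.29 (-0.47 to -0.11; adjusted p = 0.00322, exact test) and Mir125b-2 of -0.74 (-0.93 to -0.56). The median absolute log2 ratio was 0.53 over the 6 genes and 0.46 over all tested miRNAs, and the medians with sign were -0.30 and 0.02. With Mir99a and Mir100 counted as 1 gene, a choice made after seeing the data because their main strands differ at 1 base, the log2 ratio was -0.43. Of the 9 marker sums in CPM, the neuroendocrine, endothelial, smooth muscle, erythroid, striated muscle and kidney tubule ones were also higher in replicate 1. The leukocyte sums were nearly equal, at 2074 and 2050 CPM, and the epithelial and liver sums were higher in replicate 2. The smooth muscle list was split, with Mir143 at a log2 ratio of -0.59 and Mir145a at 1.07. Other lists also held ratios of both signs. They were Mir451a (-1.05) and Mir486 (0.25) among erythroid markers, and Mir192 (-1.65) and Mir194-2 (0.21) among kidney tubule markers. Epithelial markers held Mir200c (3.00) and Mir429 (-0.98), and leukocyte markers Mir223 (0.31) and Mir146 (-0.02). Of these, Mir486, Mir194-2, Mir429 and Mir146 did not pass the library test. The part of these cell types in the differences was not tested.

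**Figure D2:**
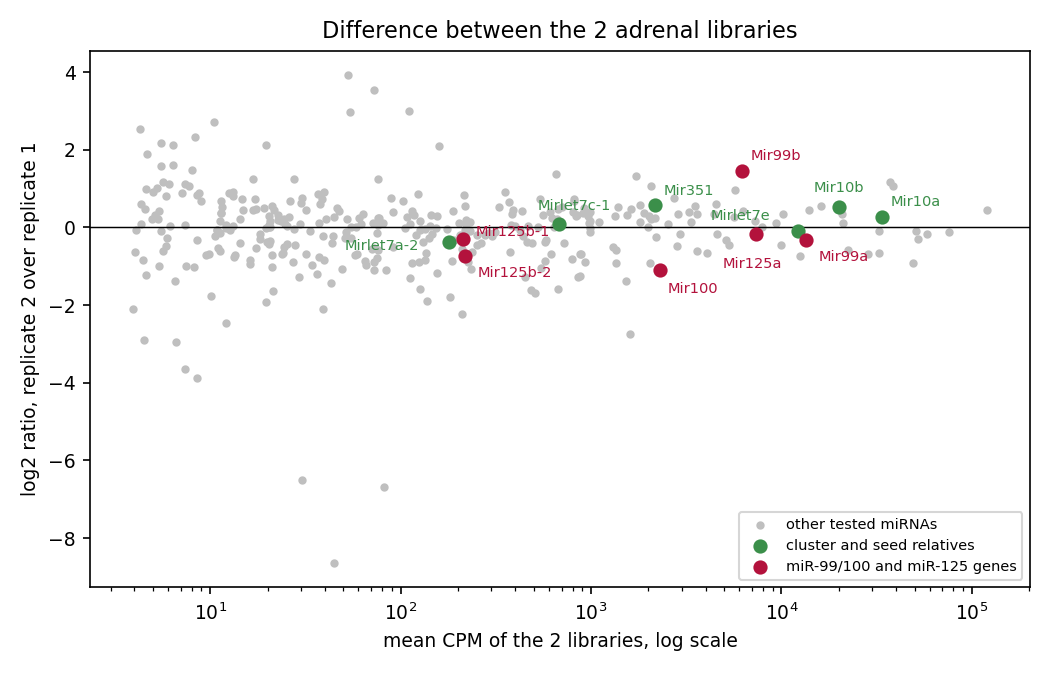
Log2 ratio, replicate 2 over replicate 1, against mean CPM on a log axis, for the 367 tested miRNAs (grey), the 6 genes (red) and their cluster and seed relatives (green). Mir99b lies at 1.46, Mir100 at -1.10, and the other 4 red points lie between -0.74 and -0.18.

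The clusters were then read from within, since a ratio between genes of the same library needs no scaling. Each of the 9 gene pairs within the clusters was compared between the libraries with a two-sided Fisher's exact test on counts. After adjustment over the 9 pairs, 8 passed at 0.05. This test too has counting error as its only spread, and pairs of a cluster share genes. No pairs outside the clusters were tested in this way, so passing does not set these pairs apart. In the Mir99b cluster the let-7 gene Mirlet7e was the most abundant, with 12719 and 11677 CPM. Mir99b had 0.266 counts per Mirlet7e count in replicate 1 and 0.778 in replicate 2, a change of 1.55 on the log2 scale (95% interval 1.51 to 1.59). Against Mir125a it had 0.429 and 1.34, a change of 1.64 (1.59 to 1.68), so the order of Mir99b and Mir125a turned between the libraries.

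Mirlet7e and Mir125a kept close to each other. There were 1.61 Mirlet7e counts per Mir125a count in replicate 1 and 1.72 in replicate 2, a change of 0.09 (0.05 to 0.13; adjusted p = 5.1e-06, Fisher's exact test). The shift in this cluster was thus a shift of Mir99b against both partners, and 94 bases separate it from Mirlet7e while 367 bases separate Mirlet7e from Mir125a. As a share of the cluster, Mir99b held 14.1% (13.8 to 14.4) of the counts in replicate 1 and 32.95% (32.6 to 33.3) in replicate 2. Among 107 neighbouring pairs of detected miRNA genes within 10 kb, partners differed by a median of 0.52 in log2 ratio, and by size of that difference the Mir99b and Mirlet7e pair ranked 9.

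In the Mir99a and Mir100 clusters the miR-99/100 gene held most of the counts. Mir99a had 22.7 counts per Mirlet7c-1 count in replicate 1 and 17.2 in replicate 2, a change of -0.40 (-0.50 to -0.30), and 54.6 and 73.3 per Mir125b-2 count, a change of 0.42 (0.24 to 0.61). Mir100 had 15.3 and 9.26 counts per Mirlet7a-2 count, a change of -0.73 (-0.93 to -0.52), and 13.4 and 7.59 per Mir125b-1 count, a change of -0.82 (-1.01 to -0.63). So Mir100 was lower against both partners in replicate 2, while Mir99a was lower there against its let-7 partner and higher against its miR-125 partner. The pair that did not pass was Mirlet7a-2 and Mir125b-1, with 0.872 and 0.819 counts of the former per count of the latter, a change of -0.09 (-0.36 to 0.18; adjusted p = 0.515, Fisher's exact test). Mirlet7c-1 and Mirlet7a-2 share 18 bases with other let-7 genes, so, like the miR-125b genes, they can lose reads to alignment at several places, and the large ratios against them are no ratios of mature miRNAs.

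**Figure D3:**
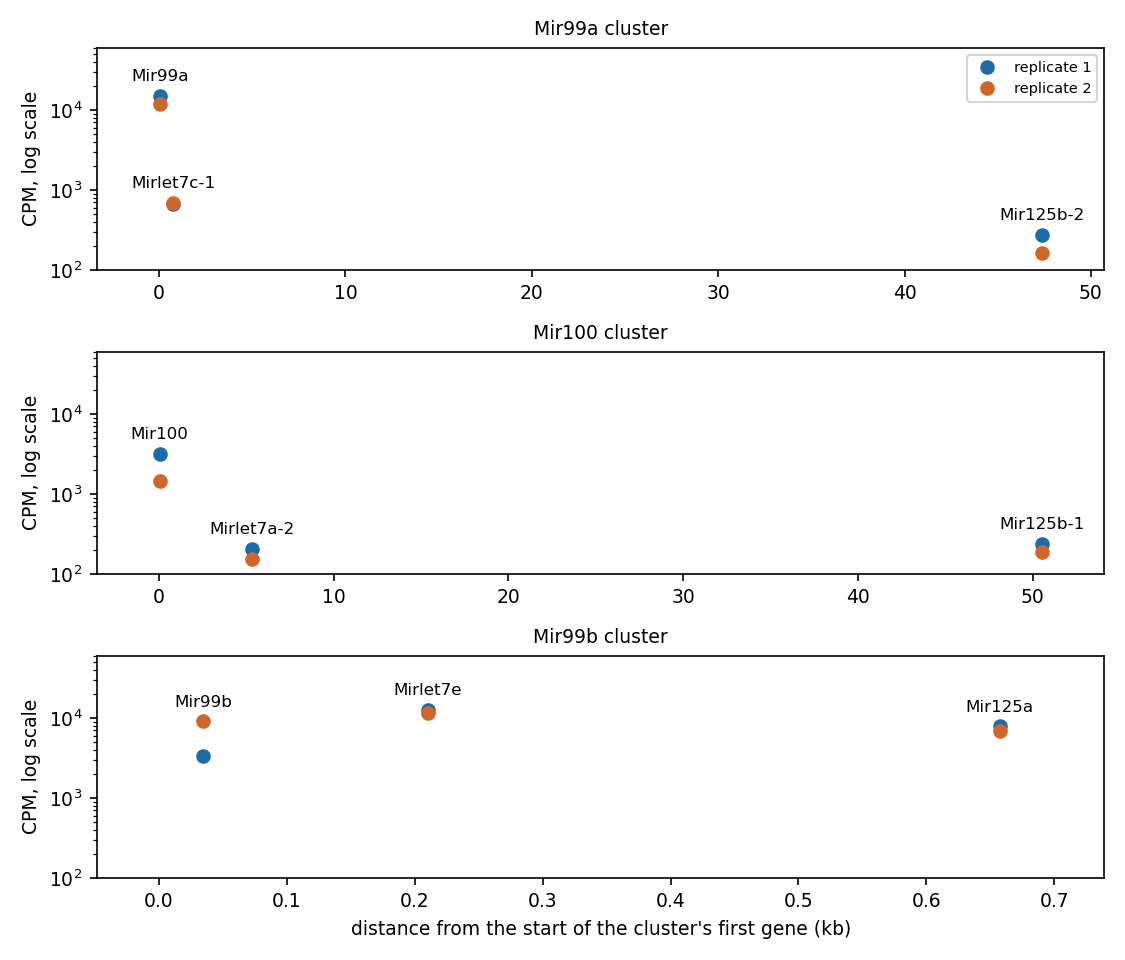
CPM on a log axis for each gene in replicate 1 (blue) and replicate 2 (orange), placed by distance in kb from the start of the cluster's first gene. The Mir99a and Mir100 clusters spread over 47.4 and 50.6 kb with a high first gene and low partners. The 3 genes of the Mir99b cluster lie within 692 bases at levels within a few-fold of each other. The low partners share 18 bases with other miRNA genes and can lose reads, so their levels do not measure the mature miRNAs.

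Summed with their let-7 genes on the own strand, the Mir99b cluster led in both libraries, but in replicate 1 this order rested on Mirlet7e. The let-7 and miR-125b genes of the Mir99a and Mir100 clusters share 18 bases with other miRNA genes and can lose reads. No gene of the Mir99b cluster does, so the sums rank counted reads and not mature miRNAs. The Mir99b cluster held 2.40% of replicate 1 and 2.76% of replicate 2, on average 2.58% ± 0.253. The Mir99a cluster held 1.61% and 1.26%, a mean of 1.43% ± 0.241, and the Mir100 cluster held 0.360% and 0.177%, a mean of 0.269% ± 0.129 (SD, n = 2 each). Without the let-7 genes, the Mir99a cluster led in replicate 1, at 1.54% against 1.13% for the Mir99b cluster, and the Mir99b cluster led in replicate 2, at 1.59% against 1.196%. Mirlet7e is overlapped by the miRNA gene Gm25927 on the opposite strand and has 0 counts when strand is ignored. The mean shares were then 1.66% for the Mir99a cluster and 1.56% for the Mir99b cluster, so the order of these clusters turned.

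**Figure D4:**
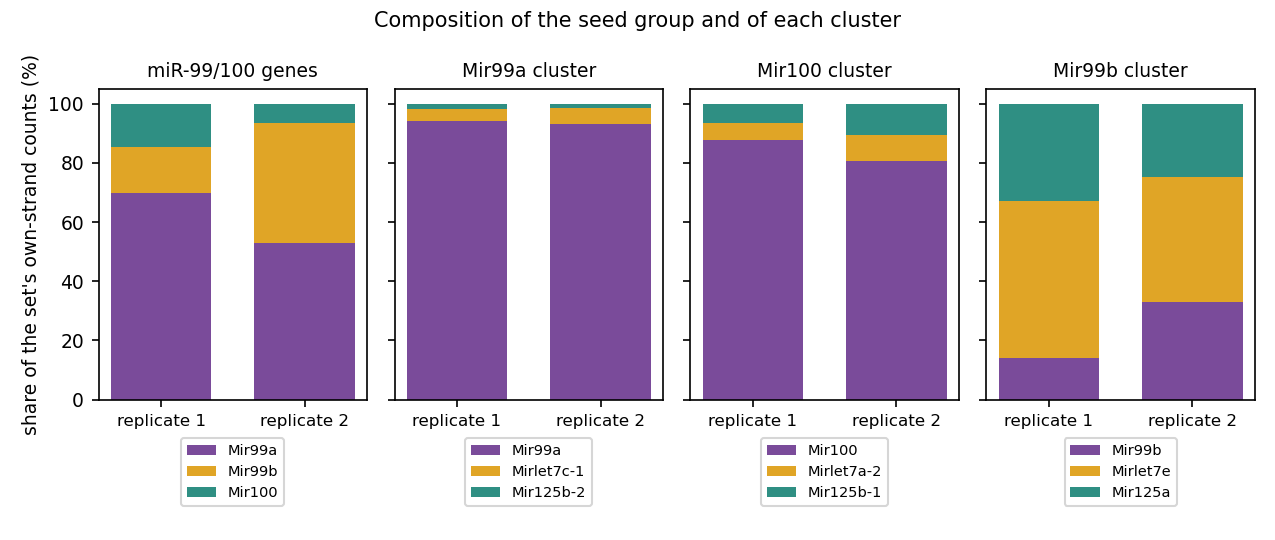
Stacked bars of the share of own-strand counts (%) held by each gene, for the miR-99/100 genes and for each cluster, in the 2 libraries. In the left panel Mir99b holds 15.6% in replicate 1 and 40.7% in replicate 2, and in the right panel it holds 14.1% and 32.95% of its cluster, while Mirlet7e and Mir125a are both narrower in replicate 2.

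Related miRNAs outside the families moved in both directions. The list held the cluster partners Mirlet7e, Mirlet7c-1 and Mirlet7a-2, the seed relative Mir351, and Mir10a and Mir10b, Hox-cluster miRNAs whose strands resemble miR-99/100. Of the 6, 3 were higher in replicate 2, 2 were higher in replicate 1 and 1 did not pass, against 62.7% passing overall.
miR-10a-5p: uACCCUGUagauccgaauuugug
miR-10b-5p: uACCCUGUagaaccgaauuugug
miR-351-5p: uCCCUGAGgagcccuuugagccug
These strands are shown to set the seeds side by side: the miR-10 seed shares its first 4 of 7 bases with the miR-99/100 seed, and the miR-351 seed is that of miR-125. Mir10a had 31017 and 36714 CPM, a log2 ratio of 0.28 (0.27 to 0.29), and Mir10b had 16633 and 23507 CPM, a ratio of 0.54 (0.52 to 0.55). Mir351 had a ratio of 0.57 (0.52 to 0.63). Among the let-7 partners, Mirlet7e had a ratio of -0.09 (-0.11 to -0.06), Mirlet7a-2 of -0.38 (-0.57 to -0.18) and Mirlet7c-1 of 0.08 (-0.02 to 0.18; adjusted p = 0.160, exact test), which turned to -0.012 with DESeq2 size factors. Adding Mir351 to the miR-125 genes gave 1.02% of counts in replicate 1 and 0.973% in replicate 2.

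The genes most like each member in level were those at the smallest Euclidean distance in log2(CPM + 1) over the 2 libraries. They were Mirlet7e (0.25) and Mir22 (0.36) for Mir99a, Mir674 (0.35) and Mir433 (0.76) for Mir99b, and Mir34a (0.24) and Mir130a (0.60) for Mir100. For Mir125a they were Mir30a (0.046) and Mir191 (0.21), for Mir125b-1 Mir383 (0.095) and Mir542 (0.17), and for Mir125b-2 Mir339 (0.10) and Mir7-1 (0.14). Mir99b had no close match at its second place, and with 2 libraries this likeness is one of level and of a single ratio.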

How the data were processed

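Small RNA libraries of 2 adrenal samples were analysed. The authors deposited raw read counts for each miRNA gene, with a column for both strands together, one for the gene's own strand and one for the opposite strand, on mm10 with GENCODE M21 per the deposited notes. For the aligner, the counter and the trimming of adapters, the tool is not given in the sources used here. The build is of C57BL/6J, and the effect of CAST/EiJ alleles on alignment was not tested. The stranded column with the larger total was taken as own strand. The 4 rows that name no gene were left out of library sizes: in replicates 1 and 2, 40.6% and 29.8% of reads were unmapped, 24.0% and 28.0% aligned to several places, and 8.94% and 9.44% fell in no miRNA gene.

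Library sizes were scaled by edgeR 4.0.16 TMM factors (1.01 and 0.987, from genes with a summed count of at least 20). edgeR's quasi-likelihood test has no residual degrees of freedom with 1 library a side, so exact tests in scipy 1.17.1 were used. Log2 ratios have a prior count of 0.5. The exact binomial test was checked on simulated counts that held counting error alone, so the check does not cover spread between samples. Alternatives were DESeq2 1.42.0 size factors, total counts, no filter, strand ignored, a prior count of 5, other denominators and leaving out a replicate. Names are the 6 members, the 6 related miRNAs and the 2 nearest genes in level of each member. Members, lists and tests were chosen with earlier results of these data known.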

Additional observations from a re-analysis of the deposited data

Results flagged for a closer look

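Reads outside the gene counts were numerous. For each read counted in a miRNA gene, replicate 1 had 0.910 reads that aligned to several places and replicate 2 had 0.855, a signal in data that the comparisons do not use. The miR-125b-5p strand, identical at Mir125b-1 and Mir125b-2, is a sequence of this kind. How many of these reads carry it was not tested.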

How the results depend on the processing

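All 6 genes passed the library test, with unchanged direction, under DESeq2 size factors, total counts, no filter, strand ignored and a prior count of 5. The log2 ratio of Mir99b was 1.37 with DESeq2 size factors, and the number of miRNAs called overall ranged from 211 to 230. Mirlet7c-1, which did not pass, turned to a log2 ratio of -0.012 with DESeq2 size factors. The mean log2 ratio of Mir99b to Mir125a, -0.40, was 0.42 without replicate 1 and -1.22 without replicate 2. Per all reads of the table, shares were 0.651% for miR-99/100, 0.228% for miR-125, and 0.419%, 0.0766% and 0.768% for the Mir99a, Mir100 and Mir99b clusters. With strand ignored, miR-99/100 held 2.53% and miR-125 held 0.898%. The Mir99a, Mir100 and Mir99b clusters then held means of 1.66%, 0.313% and 1.56%, so the Mir99a cluster led by mean share of counted reads. These shares follow from the smaller or larger totals and from Mirlet7e at 0. With strand ignored, 6 of 7 pairs within clusters passed, the pairs with Mirlet7e having no value. No paired analysis was possible because there is 1 group. Of the 6 genes the miR-125b genes had the fewest counts, 369 to 717. More depth would not place their reads that lie within the run they share.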
